A study of Mus musculus with 13 samples.

Results

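The miR-200 family, miR-203 and miR-205 are microRNAs (miRNAs, short RNAs that repress messenger RNAs they pair with) known from epithelial tissue, and they were followed here in vesicles shed by a colon tumour line and in vesicles from mouse plasma. The members were taken by name: mmu-miR-200a-3p, mmu-miR-200b-3p, mmu-miR-200c-3p, mmu-miR-141-3p, mmu-miR-429-3p, mmu-miR-203-3p and mmu-miR-205-5p, 7 of the 1164 miRNAs in the table of tumour vesicles and 7 of the 1354 in the table of plasma vesicles. The material comes from Balb/C mice and from C26, a colon adenocarcinoma line of that strain. Vesicles of C26 cells (TMVs) were collected after 48 h in serum-free medium and gave 3 libraries. Plasma vesicles gave 6 libraries from mice labelled cachectic, killed on day 14 after C26 cells had been placed under the skin of the back, and 4 libraries from control mice labelled healthy. Vesicles of either kind were pelleted by ultracentrifugation after slower spins, and their small RNA was sequenced. The labels used here give neither age nor sex of the animals, and C26 is a single cell line. The descriptions of 2 controls carry a pair of numbers whose meaning is not stated, and nothing states that each library is a separate animal, so any p-value speaks only of the spread among these libraries, which may be technical.

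The miR-200 family holds epithelial cells in their state by repressing ZEB1 and ZEB2, which themselves shut off E-cadherin, and tumour cells that have lost the family often look mesenchymal. In the mouse genome the family sits in a pair of clusters, miR-200b, miR-200a and miR-429 in the first and miR-200c and miR-141 in the second. The family divides again by seed, the stretch at the 5′ end that chooses targets, and this division runs across the clusters. miR-203 limits the growth of stem-like cells in skin and other layered epithelia through p63, and miR-205 is abundant in basal cells of skin, breast and prostate.

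The mature sequences are printed because a result below turns on the balance between the seed groups and because some members differ by few bases. All 7 were matched by name in RefSeq on GRCm38.p6. Each sequence runs 5′ to 3′, and capitals mark the seed, bases 2 to 8.
mmu-miR-200a-3p: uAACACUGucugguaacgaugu
mmu-miR-141-3p: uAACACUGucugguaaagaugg
mmu-miR-200b-3p: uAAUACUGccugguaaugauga
mmu-miR-200c-3p: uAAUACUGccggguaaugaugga
mmu-miR-429-3p: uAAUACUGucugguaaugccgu
mmu-miR-203-3p: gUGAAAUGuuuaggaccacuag
mmu-miR-205-5p: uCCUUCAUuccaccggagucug
miR-200a-3p and miR-141-3p share the seed AACACUG, and no other of the mature miRNAs in the RefSeq table has it. miR-200b-3p, miR-200c-3p and miR-429-3p share AAUACUG, which is likewise held by these 3 alone. The seed groups differ by the substitution C4U, with positions counted from 1 at the 5′ end and the base of miR-200a-3p first. miR-200a-3p and miR-141-3p differ at 2 of 22 positions (C17A and U22G), and miR-200b-3p and miR-200c-3p also at 2 of the 22 that both have (U11G and A22G, base of miR-200b-3p first). No source used here says how reads that fit close relatives were shared, so counts within these pairs are uncertain against each other. miR-200a-3p and miR-200b-3p differ at 4 positions (C4U, U9C, C17U and U22A).

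Precursor positions are those of RefSeq on GRCm38.p6, and no coordinates were taken from the count tables. The first cluster spans 1846 bases on the minus strand at chr4:156053905-156055750. Its precursors lie inside the non-coding transcript Gm13648 and the protein-coding gene Ttll10, Mir429 in an exon of Gm13648 and Mir200a and Mir200b in introns. The second cluster spans 477 bases on the minus strand at chr6:124717914-124718390, in an intron of the transcript Gm15884, between Ptpn6 and Phb2. Mir203 lies between genes on the plus strand at chr12:112130880-112130955, 3321 bases from Aspg. Mir205 lies on the minus strand at chr1:193507463-193507530, in an exon of the long non-coding RNA 4631405K08Rik.

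Depth set what could be seen. The TMV libraries held 146523, 112357 and 170571 counts, C26-bearing replicates 1 to 6 held 19298, 76376, 66088, 9828, 27846 and 32234, and control replicates 1 to 4 held 126010, 55769, 131385 and 7962. In 5 plasma libraries (C26-bearing replicates 1 to 4 and control replicate 4) miR-5119, no member, took between 26.6% and 58.7% of all counts, and in the other 5 at most 2.55%. Levels of other miRNAs are diluted by it, and the libraries rich in it hold a single control. Red cell miRNAs (miR-451a, miR-486a-5p and miR-144-3p) made up 5.84% to 31.2% of control plasma and 3.37% to 52.6% of C26-bearing plasma.

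C26 vesicles held almost none of the miR-200 family. miR-200a-3p, miR-141-3p, miR-429-3p and miR-205-5p had 0 counts in each TMV library, of 429451 counts in all, which allows up to 6.99 CPM (counts scaled to a common library total) over the group, by counting error only. miR-200b-3p had 1 count in each TMV library, and miR-200c-3p had 1, 0 and 1. The 5 family members together thus came to 5 counts, 11.4 ± 2.39 CPM (SD, n = 3). miR-203-3p was the only member with at least 10 counts in a TMV library, having 16, 10 and 17 counts, or 109, 89.0 and 99.7 CPM. These libraries lay close together, and miR-203-3p made up 43 of the 48 counts of all members.

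Plasma vesicles held every member in at least part of the libraries. The 7 members summed to 0.0123%, 0.00979% and 0.0111% of counts in the TMV libraries (0.0111% ± 0.00125, SD, n = 3), 0.432% ± 0.214 (n = 4) in control plasma and 0.444% ± 0.253 (n = 6) in C26-bearing plasma. The lowest plasma library stood at 0.153% and the highest TMV library at 0.0123%, so the materials did not overlap. This was not particular to the members. The red cell miRNAs (at most 1.42% in TMVs, at least 3.37% in plasma) and miR-122-5p of liver (at most 0.0375%, at least 0.508%) did not overlap either. Lists for muscle, myeloid and other epithelial cells did overlap, and a mesenchymal list lay higher in TMVs. The share of all miRNAs without overlap was not counted. At the lowest share seen in a control library, a TMV library of its depth would have held 28.2 to 42.8 counts of miR-200a-3p and the same range of miR-205-5p, against 0. That share comes from control replicate 4, with 2 counts of each miRNA among 7962, so these expected counts are rough. At the lowest share in a C26-bearing library the ranges were lower, 10.2 to 15.5 counts for miR-200a-3p and 6.80 to 10.3 for miR-205-5p. They rest on 6 and 4 counts in C26-bearing replicate 3. With TMVs set to a floor of 3 counts over the group, pooled control plasma stood 68.2-fold higher for miR-200a-3p and 54.4-fold for miR-205-5p. Against the same floor, pooled C26-bearing plasma stood 29.7-fold and 32.1-fold higher. These floor ratios take the plasma counts as exact, so they are not strict bounds. For miR-200b-3p the pooled ratio of control plasma to TMVs was 24.1 (95% exact interval 7.81 to 120, counting error only). It was 21.4 (5.46 to 184) for miR-200c-3p and 35.9 (26.5 to 49.9) for miR-203-3p. The intervals leave out the spread between libraries. Control counts of miR-200c-3p came only from replicates 1 and 3, with 12 and 20, while replicates 2 and 4 had 0. Low counts of miR-429-3p and miR-141-3p, 4 and 7 in all of control plasma, put their floor ratios at only 1.78 and 3.12. With so few plasma counts these do not show a difference. TMVs and plasma were prepared as different materials and counted in separate tables, so material and table cannot be told apart and no test was made.

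**Figure D1:**
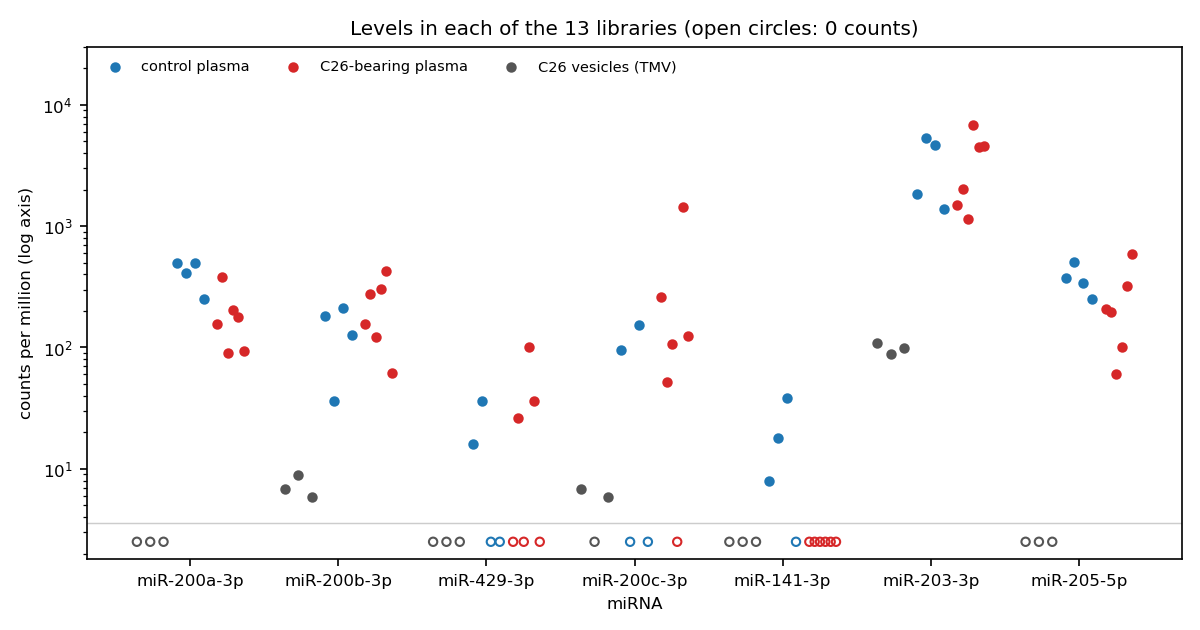
CPM (log axis) of the 7 members in each library, TMVs in grey (3 libraries), control plasma in blue (4) and C26-bearing plasma in red (6), with libraries at 0 counts as open circles under the line. TMV points are at 0 or below 10 CPM for 6 members and at 89.0 to 109 CPM for miR-203-3p, while plasma libraries hold miR-203-3p at 1150 to 6817 CPM.

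Some other miRNAs of epithelial cells were plentiful in the same C26 vesicles. In the 3 TMV libraries miR-31-5p, which is common in squamous and colon tumours, had 1148, 639 and 820 counts (6110 ± 1557 CPM, SD, n = 3). miR-182-5p had 501, 448 and 618 counts (3677 ± 288 CPM) and miR-183-5p 385, 327 and 424 (2675 ± 216 CPM), and these neighbours in 1 cluster were steady between libraries. The third member of that cluster, miR-96-5p, had 1, 3 and 3 counts. Of the markers of gut epithelium, miR-192-5p had 56, 47 and 105 counts, miR-194-5p 8, 7 and 19, and miR-215-5p 0, 1 and 0. Of the 8 miRNAs listed as markers of colon and gut epithelium, these 3 and the 5 miR-200 family members, 3 were at 0 in all TMV libraries (miR-200a-3p, miR-141-3p and miR-429-3p) and 3 more had 3 counts or fewer in all. This tally rests mostly on the family itself, and miR-31-5p, miR-182-5p and miR-183-5p are not among those markers. The 8 other epithelial miRNAs listed made up 1.30% ± 0.133 of TMV counts.

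Of the 9 miRNAs listed for mesenchymal cells and fibroblasts, 8 were in the TMV table, and each of the 8 had at least 10 counts in every TMV library. Together they made up 7.97% ± 0.985 (SD, n = 3) of TMV counts, against 0.0111% for the 7 members. miR-143-3p, typical of smooth muscle and fibroblasts, stood highest at 42113 ± 7447 CPM, followed by miR-199a-3p at 15299 ± 5672, miR-222-3p at 7434 ± 2368 and miR-221-3p at 7010 ± 1290. The list was uneven, with miR-10b-5p at 483 ± 199 CPM and miR-145a-5p lowest at 144 ± 50.2. In control plasma the mesenchymal list made up 2.53% ± 1.03 of counts (n = 4). There miR-10b-5p stood higher than in TMVs, at 8442 ± 5008 CPM. miR-145a-5p had 2, 0, 0 and 4 counts in control replicates 1 to 4. Its mean there of 130 ± 249 CPM rests on the 4 counts in replicate 4, a library of 7962 counts, and its median was 7.94 CPM. Blood and liver miRNAs were also counted in TMVs: the 3 red cell miRNAs took 0.408% to 1.42% of counts and miR-122-5p, the main liver miRNA, had 29, 33 and 64 counts. Their part in the 43 counts of miR-203-3p was not tested.

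**Figure D2:**
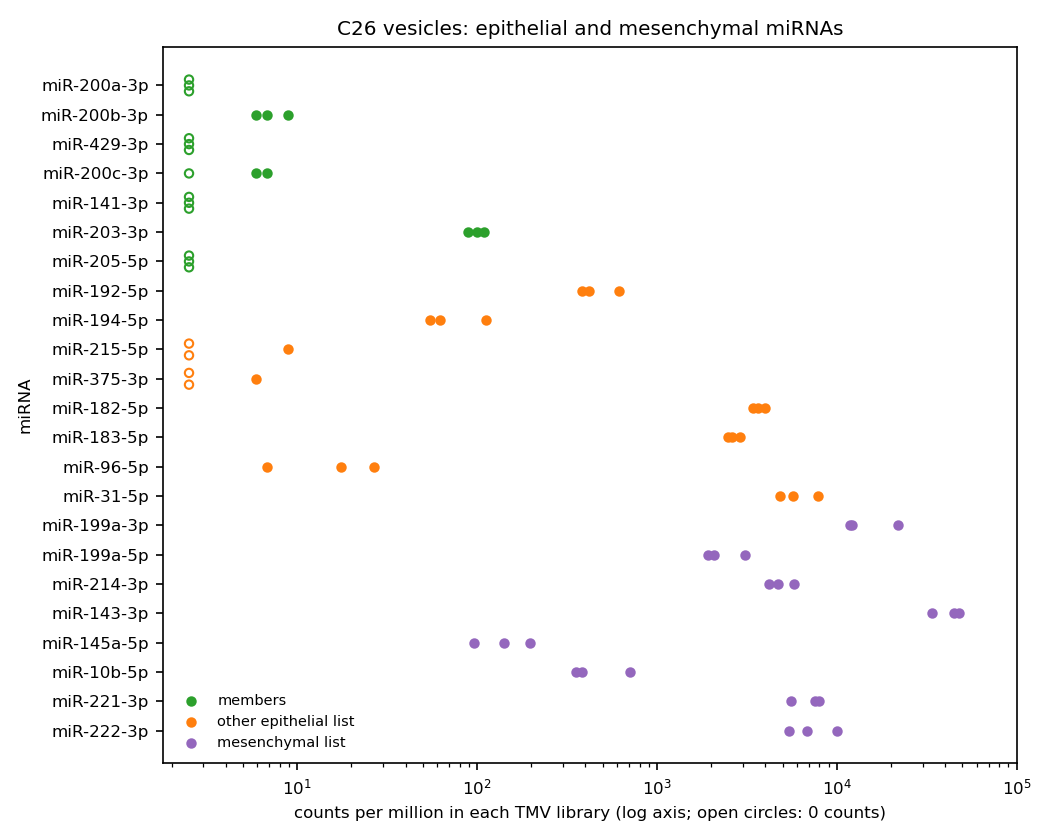
CPM (log axis) in each of the 3 TMV libraries for the 7 members (green), 8 other epithelial miRNAs (orange) and the 8 mesenchymal miRNAs in that table (purple), with libraries at 0 counts as open circles at the left edge. Among the members only miR-203-3p lies above 10 CPM, while miR-31-5p, miR-182-5p and miR-183-5p have means of 6110, 3677 and 2675 CPM and miR-143-3p lies highest with a mean of 42113 CPM.

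In plasma vesicles miR-203-3p was the leading member by far. It had 231, 299, 613 and 11 counts in control replicates 1 to 4 and 29, 154, 76, 67, 125 and 148 in C26-bearing replicates 1 to 6. It took 60.9% to 84.2% of the members' counts in control libraries and 65.1% to 90.5% in C26-bearing libraries, and ranked between 19 and 56 among all miRNAs of a library. miR-200a-3p, miR-200b-3p, miR-205-5p and miR-200c-3p followed at lower levels. On pooled control counts miR-200a-3p stood at 476 CPM, miR-205-5p at 380, miR-200b-3p at 168, miR-200c-3p at 99.6, miR-141-3p at 21.8 and miR-429-3p at 12.5. miR-200a-3p and miR-205-5p, neighbours in this order, overlapped in range across control libraries (251 to 500.0 and 251 to 502 CPM), as did miR-200b-3p (35.9 to 213) and miR-200c-3p (0 to 152). miR-205-5p and miR-200b-3p, next to each other in the order, did not overlap.

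The design asks which vesicle miRNAs differ between C26-bearing and control plasma. Only 3 of the 7 members passed the filter on low counts (miR-200a-3p, miR-203-3p and miR-205-5p), since the others had too few counts. None of the 3 was called by edgeR's quasi-likelihood test at an adjusted p of 0.05, and none had an unadjusted p under 0.05. Across all 130 miRNAs tested the share called was also 0%, with 15 at an unadjusted p under 0.05, while DESeq2 called 4 and limma voom 17, no member among them. Of the 3 members tested, 2 had a log2 fold change below 0, against 49.2% of all tested, and their median was -0.46 against 0.01.

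Of the 3 members tested, miR-200a-3p had the log2 fold change farthest from 0. Its counts were 63, 23, 65 and 2 in control replicates 1 to 4 and 3, 29, 6, 2, 5 and 3 in C26-bearing replicates 1 to 6. Scaled by TMM factors (which set libraries to a common composition) the controls stood at 554, 355, 367 and 346 CPM and the C26-bearing libraries at 161, 363, 143, 203, 158 and 105 CPM. C26-bearing replicate 2 lay within the range of controls and the other 5 below all of them. Of all tested miRNAs, 3.85% had at least 5 of 6 C26-bearing libraries below every control. The means were 189 ± 91.2 (SD, n = 6) and 405 ± 99.4 TMM-scaled CPM (SD, n = 4), which gave a log2 fold change of -1.09 (SE 0.508, edgeR adjusted p = 0.395). Within the 5 libraries poor in miR-5119 it was -1.66 (SE 0.765, edgeR adjusted p = 0.452), and in those rich in it miR-200a-3p did not pass the filter. In plasma, fewer vesicles from a tissue and less of the miRNA per vesicle cannot be told apart.

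miR-200b-3p, a neighbour of miR-200a in the same cluster, showed no such order of the libraries. It had 23, 2, 28 and 1 counts in control replicates 1 to 4 and 3, 21, 8, 3, 12 and 2 in C26-bearing replicates 1 to 6. On the TMM scale these are 202, 30.8, 158 and 173 CPM against 161, 263, 190, 305, 379 and 70.0 CPM, and the groups overlapped. It failed the filter on low counts. Without that filter the fit gave it 0.55 on the log2 scale (SE 1.16, edgeR adjusted p = 0.803), and that of miR-200a-3p in the same fit was -1.21 (SE 1.05). The difference between these values was not tested. Over all 955 miRNAs in that fit the median was 0.88, so 0.55 for miR-200b-3p lay below the centre of its own fit. The same fit gave miR-200c-3p 1.99 (SE 1.20, edgeR adjusted p = 0.346) and miR-429-3p 0.41 (SE 1.75, edgeR adjusted p = 0.891). It gave miR-141-3p -3.15 (SE 1.60, edgeR adjusted p = 0.333), the only member there with an unadjusted p under 0.05, a value that is no bound because all its C26-bearing libraries were at 0.

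The count ratio of miR-200a-3p to miR-200b-3p did not overlap between the groups, a ratio that depends on neither library size nor scaling. It was 2.74, 11.5, 2.32 and 2 in control replicates 1 to 4 and 1, 1.38, 0.75, 0.667, 0.417 and 1.5 in C26-bearing replicates 1 to 6. Every C26-bearing library lay below every control, the closest being 1.5 in C26-bearing replicate 6 and 2 in control replicate 4. The ratio was singled out after its values were seen, and it was not tested. Among the 10 pairs of the 5 members with at least 10 counts in some plasma library it was the only pair without overlap. Among all 8385 pairs of tested miRNAs 2.56% had ratios without overlap in either direction. miR-200b-3p failed the filter on low counts, so its pairs are not among these. That share therefore does not say how rare such a ratio is at counts this low. Control replicate 4 rests on 2 counts against 1 and C26-bearing replicate 6 on 3 against 2. Their exact 95% intervals for the share of miR-200a-3p, 9.43% to 99.2% and 14.7% to 94.7%, span nearly the whole range.

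**Figure D3:**
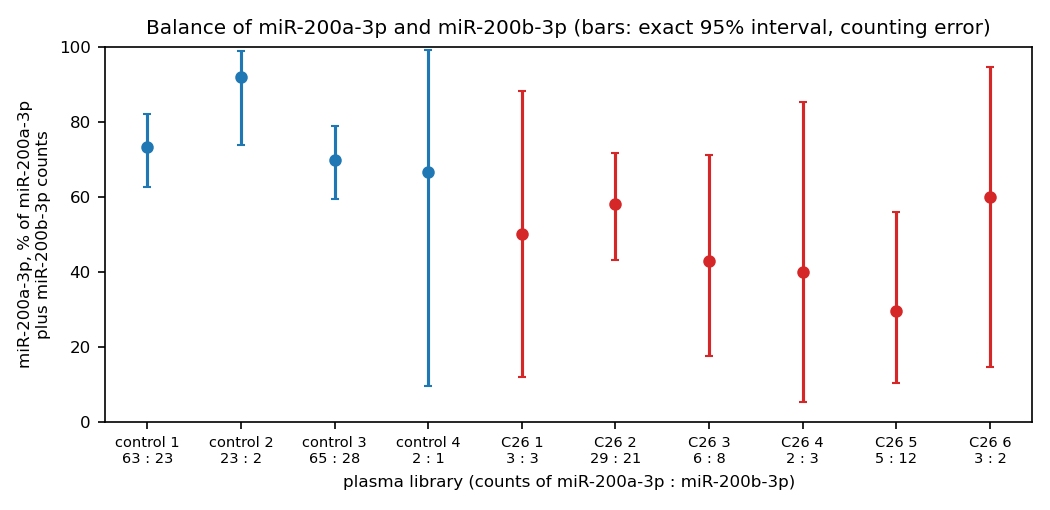
Share of miR-200a-3p among the counts of miR-200a-3p and miR-200b-3p (percent) in each plasma library, controls in blue and C26-bearing in red, with exact 95% intervals for counting error and the counts under each library. Controls sit between 66.7% and 92.0% and C26-bearing libraries between 29.4% and 60.0%, with intervals that overlap widely in libraries of few counts.

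Grouped by the seeds printed above, the family's counts leaned to AACACUG in controls and to AAUACUG in most C26-bearing libraries. The group of miR-200a-3p and miR-141-3p took 63.4%, 85.7%, 59.3% and 66.7% of the family's counts in control replicates 1 to 4, and 27.3%, 51.8%, 28.6%, 33.3%, 8.62% and 33.3% in C26-bearing replicates 1 to 6. The groups did not overlap, but miR-200a-3p, the numerator of the ratio above, supplies 201 of the 208 counts of this seed in plasma. The observations are therefore not independent. Control replicate 4 rests on 3 family counts (exact 95% interval 9.43% to 99.2%), and C26-bearing replicates 4 and 6 on 6 and 9. How often other groupings of miRNAs fail to overlap was not counted. The AAUACUG group also holds miR-200c-3p, and the count ratio of miR-200a-3p to miR-200c-3p overlapped between the groups. miR-141-3p itself had 1, 1, 5 and 0 counts in controls and 0 in all C26-bearing libraries. That allows up to 12.9 CPM there, against 21.8 CPM in pooled controls. Their ratio of 1.68 takes the 7 control counts as exact, so it is not a strict bound.

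The clusters did not separate the groups. The first cluster (miR-200a, miR-200b and miR-429) took 87.1%, 96.4%, 78.8% and 100% of the family's counts in control replicates 1 to 4, 84.4% on pooled counts. In C26-bearing replicates 1 to 6 it took 54.5%, 92.9%, 66.7%, 100%, 31.0% and 55.6%, and 62.7% on pooled counts. That pooled value rests on C26-bearing replicate 5, where miR-200c-3p had 40 of the family's 58 counts. Without this library the pooled share was 80.6%, and without C26-bearing replicate 2, the other library rich in family counts, 46.7%. In the TMV libraries the family's 5 counts were split 3 to 2 between the clusters, which allows any share between 14.7% and 94.7%.

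Counts of miR-200c-3p in plasma were uneven between libraries. It had 12, 0, 20 and 0 counts in control replicates 1 to 4 and 5, 4, 7, 0, 40 and 4 in C26-bearing replicates 1 to 6. C26-bearing replicate 5 stood at 1436 CPM, and the mean of the group was 330 ± 549 CPM (SD, n = 6) with it and 108 ± 97.3 (n = 5) without it, against 61.9 ± 75.1 in controls (n = 4). Its cluster neighbour miR-141-3p had 0 counts in that library. miR-429-3p had 2, 2, 0 and 0 counts in controls and 0, 2, 0, 1, 1 and 0 in C26-bearing libraries, too few to compare.

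miR-203-3p and miR-205-5p did not separate the groups, and each had C26-bearing libraries both below and above all controls. For miR-203-3p, 2 of the 6 lay below all controls and 2 above all. On the TMM scale miR-203-3p stood at 2030, 4608, 3459 and 1901 CPM in control replicates 1 to 4 and at 1555, 1930, 1806, 6816, 3944 and 5179 CPM in C26-bearing replicates 1 to 6. The fit gave 0.22 on the log2 scale (SE 0.530, edgeR adjusted p = 0.842), and the sign turned to -0.12 without C26-bearing replicate 4, a library of 9828 counts. miR-205-5p had 47, 28, 45 and 2 counts in controls and 4, 15, 4, 1, 9 and 19 in C26-bearing libraries, which is 413, 432, 254 and 346 against 214, 188, 95.05, 102, 284 and 665 TMM-scaled CPM. C26-bearing replicate 6 was above all controls and 4 of the 6 below all. This came to a log2 fold change of -0.46 (SE 0.617, edgeR adjusted p = 0.766). It was -1.03 (SE 0.509) without C26-bearing replicate 6 and 0.41 (SE 0.719) within the libraries poor in miR-5119. For all 3 members tested, these errors do not show that the groups are alike.

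**Figure D4:**
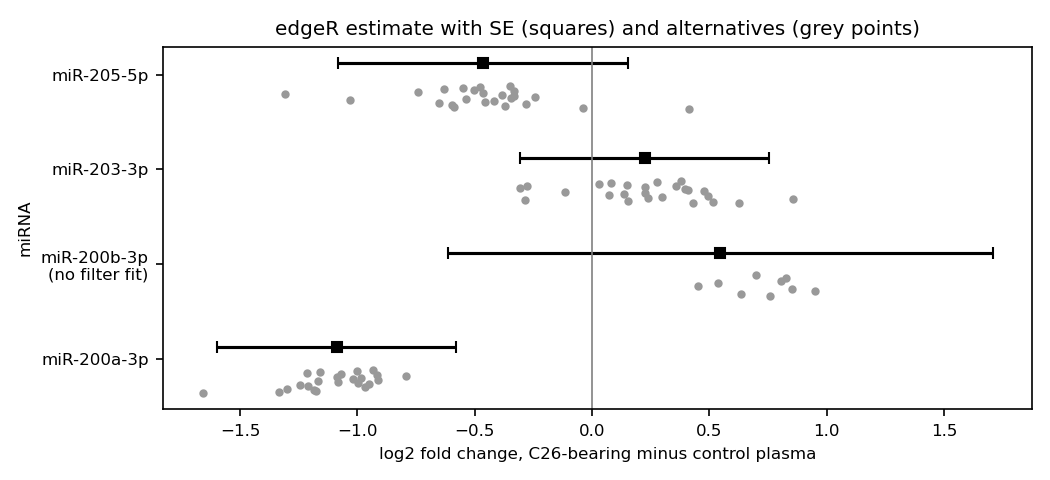
Log2 fold change of C26-bearing minus control plasma for 4 members, with the edgeR estimate and its SE as black squares and bars (for miR-200b-3p from the fit without a filter) and each other setting as a grey point. All points of miR-200a-3p (24 fits) lie below 0 and all of miR-200b-3p (10 fits) above 0. Those of miR-203-3p and miR-205-5p fall on both sides. The fits share libraries, so the points are not independent. miR-200b-3p failed the filter of the main fit, and its square, with an SE of 1.16, has a bar that crosses 0. In the fit without a filter the median of all miRNAs was 0.88, above the square of miR-200b-3p.

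The opposite arms of the same precursors were scarce, as is usual for the strand that is discarded when a miRNA is made. miR-200a-5p had 7 counts in control replicate 1, 2, 1 and 1 in C26-bearing replicates 2, 3 and 5 and 0 elsewhere. miR-200b-5p had at most 2 counts in any library, and miR-203-5p, miR-205-3p and miR-141-5p had 0 in all plasma libraries. miR-200c-5p had 3 and 2 counts in C26-bearing replicates 2 and 3 and 0 elsewhere in plasma. The 4 arms listed in the TMV table had 0 counts there. miR-429-5p departed from this, with 8, 2 and 1 counts in C26-bearing replicates 1 and 4 and control replicate 4, where miR-429-3p had 0, 1 and 0. These were the plasma libraries of fewest counts (19298, 9828 and 7962), all rich in miR-5119, and miR-429-5p had 0 in the other plasma libraries.

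The 8 other epithelial miRNAs listed did not all lean one way in plasma. The 4 that passed the filter, those of gut and pancreas, had log2 fold changes below 0, against 49.2% of all tested, and 0 passed the adjusted threshold in edgeR. Of the 4 that did not pass it, miR-183-5p had a lower mean in C26-bearing libraries (101 ± 72.7 CPM, SD, n = 6) than in controls (288 ± 130 CPM, n = 4). miR-182-5p had a higher one (181 ± 138 against 90.0 ± 25.5 CPM). miR-31-5p stood at 25.3 ± 28.5 and 25.0 ± 22.9 CPM, and miR-96-5p had 4 counts in all C26-bearing libraries and 0 in controls. miR-215-5p of intestine (-1.52, SE 0.465, edgeR adjusted p = 0.304) and miR-375-3p of islets and gut (-2.54, SE 0.779, edgeR adjusted p = 0.304) had an unadjusted p under 0.05, as did 4.62% of all tested miRNAs in this direction. miR-192-5p stood at -0.98 (SE 0.604) and miR-194-5p at -0.90 (SE 0.587), and the liver miRNA miR-122-5p at -1.92 (SE 0.819, edgeR adjusted p = 0.395). Their part in the levels of miR-200a-3p was not tested. By profile over the 10 plasma libraries, with log2 levels centred on each miRNA's mean, the nearest to miR-200a-3p were miR-541-5p, miR-1843a-5p and miR-30a-3p (mean absolute difference 0.33, 0.37 and 0.38, against a median of 1.07 for all others). Nearest to miR-203-3p were miR-92a-3p (0.26), miR-25-3p (0.43) and miR-30d-5p (0.45), and nearest to miR-205-5p were miR-99b-5p (0.48), miR-125b-5p (0.51) and let-7c-5p (0.51).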

How the data were processed

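Small RNA of 13 libraries was read as single reads of 75 bases, per the labels' protocols. The tools named are bcl2fastq and cutadapt 1.10, per the submitters' processing notes; aligner, counter, annotation and build were not given in the sources used here. Each of the 2 deposited tables holds unnormalized counts per mature miRNA, and the authors' columns were matched to samples by description. The members and lists were chosen with earlier results of these data known.

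Plasma counts were filtered with filterByExpr (minimum count 10, 130 kept), scaled with TMM and fitted across all miRNAs with edgeR 4.0.16 (robust quasi-likelihood, Benjamini-Hochberg, threshold 0.05) in R 4.3.3, with SE as the log2 fold change over the root of F. The fit was also run on counts simulated with a common spread for all miRNAs and no split by miR-5119, unlike these data. No result here rests on that run. DESeq2 1.42.0 and limma 3.58.1 were alternatives, beside other scalings, filters, left-out libraries, a replicate block and miR-5119 handling. Shares, ratios and Clopper-Pearson intervals were computed in Python 3.11.15 with scipy 1.17.1, and 0.5 was added to each count for ratios over all pairs. A count of 0 was read as up to 3 counts over a group. Intervals and floors reflect counting error alone, as PCR copies could not be told from separate molecules. All 7 members are named, and of the other epithelial and mesenchymal lists the 4 of highest mean level in the samples described. The gut markers, other members of the epithelial list, miR-10b-5p and miR-145a-5p were added after their values were seen. Likeness is the mean absolute difference of log2 TMM-scaled CPM, each centred on its mean. The 9 opposite arms listed include 2 of miR-203b, not analysed here. Replicates of a group differed beyond sampling noise in every pair.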

Additional observations from a re-analysis of the deposited data

Results flagged for a closer look

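Among 25 sets of values over the 4 control or 6 C26-bearing libraries, 6 held a library far from the rest of its group. The rule flags about 1 set in 20 by chance only for independent, normally distributed values. These sets hold low counts, sums and ratios, and some share the same counts, so the number flagged cannot be set against that rate. miR-200a-3p in control replicate 1 stood at 554 TMM-scaled CPM, with the next control at 367. miR-200c-3p in C26-bearing replicate 5 stood at 1262, with the next library at 268. The summed miR-200 family in that library stood at 2083 CPM, with the next at 733. miR-205-5p in C26-bearing replicate 6 stood at 665, with the next at 284. miR-429-3p in C26-bearing replicate 4 stood at 102, which is 1 count in a library of 9828. The ratio of miR-200a-3p to miR-200b-3p in control replicate 2 was 11.5, with the next at 2.74, and rests on 2 counts of miR-200b-3p.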

How the results depend on the processing

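No setting called a member; at an unadjusted p under 0.05 there was 1 without a filter (miR-141-3p) and 1 with miR-5119 removed (miR-200a-3p), and 0 elsewhere. The log2 fold change of miR-200a-3p lay between -1.66 and -0.79 over the 24 fits that held it, with edgeR, DESeq2 or limma voom, and the adjusted p between 0.226 and 0.998 where given (DESeq2 gave none). miR-203-3p changed sign to -0.28 with limma voom, -0.31 with a replicate block, -0.28 without libraries under 10000 counts and -0.12 without C26-bearing replicate 4 (-0.12 to 0.49 with each library left out), and miR-205-5p to 0.41 within the libraries poor in miR-5119; the cause was not tested. Over all miRNAs the number called was 4 without a filter and with DESeq2, 17 with limma voom, 2 with miR-5119 abundance (above 20% or not) as a covariate, 1 within the libraries rich in it, which hold 1 control assumed to vary like the rest, and 0 to 1 with each library left out (1 without C26-bearing replicate 2 or 3). With the replicate block it was 0, with 31 miRNAs at an unadjusted p under 0.05 against 15. The numbers were not read as pairs. Deviations of same-numbered libraries correlated at -0.37, -0.29, -0.30 and 0.16, but this cannot decide on pairing. C26-bearing replicates 1 to 4 all correlated best with control replicate 4, the only control rich in miR-5119, as they are themselves. RLE scaling moved the median log2 fold change of all tested miRNAs from 0.01 to 0.19. With at least 10 counts asked for, 1 member in place of 3 was found in TMVs. The summed levels and cluster shares moved by less than their spread between libraries in each alternative. Depth limits miR-429-3p and miR-141-3p, with few counts in any library, and the ratio, which rests on 3 or fewer counts of miR-200b-3p in several libraries, also ones above 10000 counts.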
